A study of Homo sapiens with 6 samples.

Results

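The heterotrimeric G protein alpha subunits are described here by 9 genes, GNA13, GNA12, GNA11, GNAQ, GNAS, GNAI1, GNAI2, GNAI3 and GNAZ, which were chosen by symbol and all of which were found among the 17297 genes of the count table. LNCaP is a human cell line long established from a prostate cancer, and it had been made to carry either the empty pBabe vector (pBabe-vector) or the same retroviral vector with wild-type GNA13 cDNA (pBabe-Gα13). Both lines had been selected with puromycin, were grown on plates in RPMI with serum for 48 h, and gave 3 RNA-seq libraries each, so that 1 stable line stands for each genotype and the replicates are cultures of that line. The comparison asked whether the other alpha subunits shift at the transcript level when GNA13 is overexpressed. Libraries held 33002160 to 40628970 counted reads.

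Heterotrimeric G proteins carry signals from receptors in the cell membrane. The alpha subunit binds GDP at rest, exchanges it for GTP when the receptor is engaged, and separates from the beta-gamma dimer, and both parts then act on effectors until the alpha subunit hydrolyses its GTP. The classes differ in their effectors: Gs stimulates and Gi inhibits adenylyl cyclase, Gq/11 activates phospholipase C beta, and G12/13 acts mainly through a group of guanine nucleotide exchange factors. Classes share a pool of beta-gamma dimers, and 1 receptor may couple to more than 1 class.

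The reads were counted per gene by the authors. Expression is given as CPM, the reads of a gene scaled to a common library size, with TMM scaling, with SD over 3 libraries, and the log2 fold change is pBabe-Gα13 over pBabe-vector. A gene was called at an adjusted p under 0.05 by the quasi-likelihood test of edgeR, adjusted over the whole table by Benjamini and Hochberg's method. Libraries were paired across the lines by their column headings: the library of each line tagged std (replicate 1 of pBabe-vector), replicate 2 with replicate 2, and replicate 3 with replicate 3. The std pairing was assumed from that tag, whose meaning is not given, and the numbers in those headings differ. All blocked values and counts of pairs depend on it. Paired libraries deviated together from their group means, so a second fit took the pair as a block; values from the fits are called unblocked and blocked. Unblocked, 0.139% of all genes were called, and blocked 19.7%. Single values were also compared by exact permutation tests, two-sided, which with 3 libraries a line cannot go below p = 0.10.

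All 10 luminal prostate markers were present in every library, with KLK3, which encodes prostate-specific antigen, at 3143 ± 934 CPM in pBabe-Gα13 and 2765 ± 977 CPM in pBabe-vector (SD, n = 3). Of these 10, 5 were called higher with the block, among them KLK2 (log2 fold change 0.97), EPCAM (0.37) and KRT8 (0.33). Over all genes 9.32% were called higher with the block. Of 3 basal markers, summed CPM lay between 4.49 and 8.26 in the pBabe-Gα13 libraries and between 2.38 and 2.48 in the pBabe-vector ones, and 2 were called higher with the block. KRT14 had 159, 153 and 151 reads in pBabe-Gα13 (std, replicates 2 and 3) and 76, 84 and 58 reads in pBabe-vector (replicates 1, 2 and 3). KRT5 was at 0 reads in both replicate 2 libraries, and TP63 was at 0 in 4 of 6. The 4 fibroblast markers summed to 17.3 to 24.8 and 11.6 to 23.5 CPM, mostly from COL1A1. COL1A2 had 96, 0 and 87 reads in pBabe-Gα13 (std, replicates 2 and 3) and 2, 0 and 3 reads in pBabe-vector, and was called higher with the block (edgeR adjusted p = 2.14e-08). The only endothelial marker in the table, VWF, ranged from 14.6 to 30.5 CPM in pBabe-Gα13 and from 6.54 to 20.6 CPM in pBabe-vector and was also called higher with the block (edgeR adjusted p = 8.57e-06). None of the 4 leukocyte markers was in the table. The part of these markers in the differences described below was not tested.

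Of the 9 genes, only GNA13 passed the test without the block, where 0.116% of all genes were called as higher and 0.0231% as lower. With the block 4 of 9 passed: GNA13 and GNAQ were higher, and GNAI1 and GNAS were lower, where 9.32% of all genes were called as higher and 10.4% as lower. GNAI1 stood at 33.3% and GNAS at 79.7% of the pBabe-vector level. GNA12, GNA11, GNAI2, GNAI3 and GNAZ passed neither fit, with log2 fold changes between −0.07 and 0.03. The median over the 9 genes was 0.00036, against −0.0013 over all genes of the table. Groups did not overlap for 3 of the 9 genes (GNA13, GNAI1 and GNAS), as was the case for 14.1% of all genes (7.3% higher and 6.79% lower). GNA13 and GNAQ were higher in 3 of 3 pairs, as were 22.6% of all genes, and GNAI1, GNAS and GNAZ were lower in 3 of 3 pairs, as were 25.3%. These counts include GNA13, the gene introduced, so its part in each was fixed by the design. Among the other genes only GNAI1, GNAS and GNAQ passed with the block, and only GNAI1 and GNAS did not overlap.

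**Figure D1:**
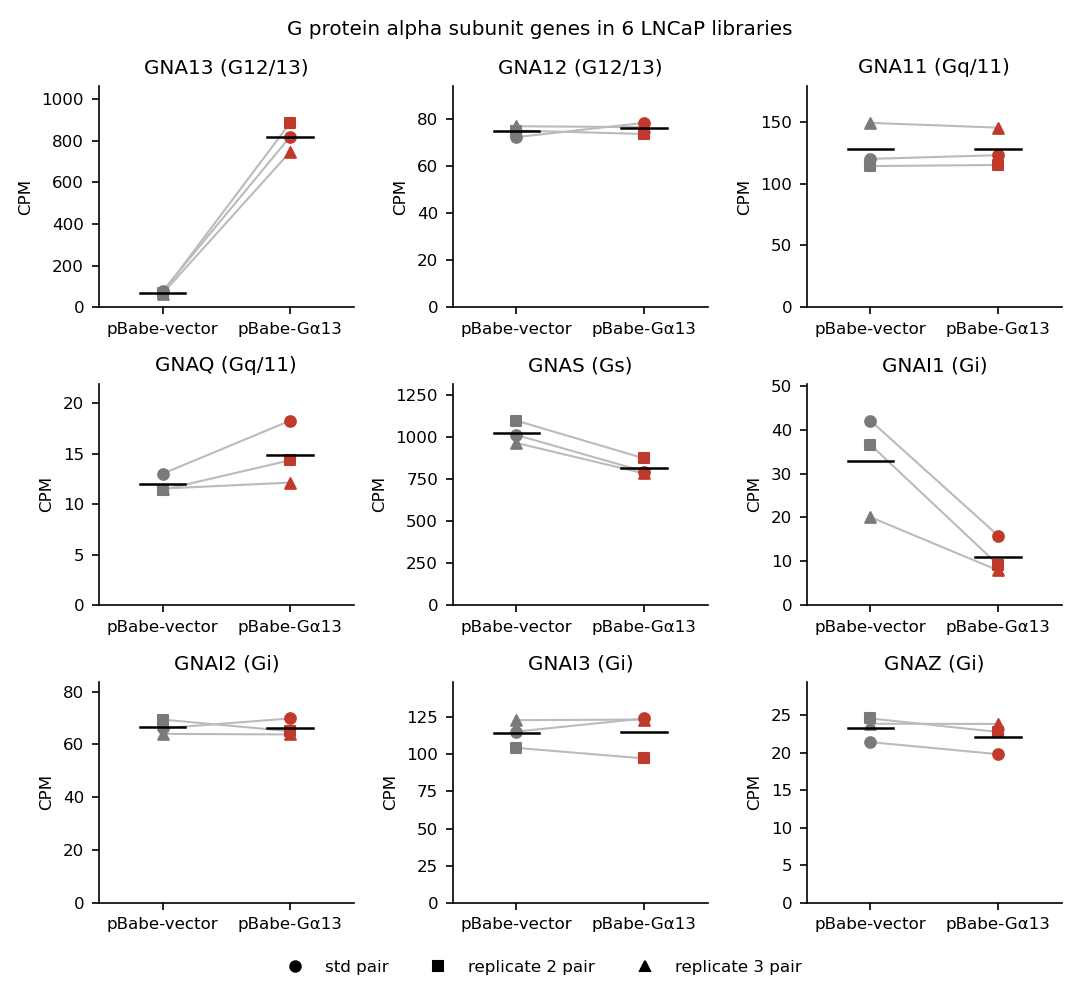
Expression in TMM-scaled CPM (vertical axis, from 0) of the 9 alpha subunit genes in the 3 pBabe-vector (grey) and 3 pBabe-Gα13 (red) libraries; marker shape and grey lines join the libraries of a pair, and black bars are group means. GNA13 lies higher and GNAI1 and GNAS lie lower in all 3 pBabe-Gα13 libraries, GNAQ is higher within each of the 3 pairs, and the other 5 genes overlap between the lines.

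GNAI1 encodes Gαi1, 1 of 3 closely related inhibitory subunits, and lies on the plus strand of chromosome 7 of GRCh38 (79768028 to 80226181 in Gencode 44). The 250 bases before the start of its reference (MANE Select) transcript are shown because GNAI1 had the largest difference among the 8 genes other than GNA13, and those of its paralog GNAI3, on chromosome 1, because GNAI3 did not pass. Both are the plus strand of GRCh38.p14 from RefSeq, chr7:80134581-80134830 and chr1:109548365-109548614, written 5′ to 3′, with capitals at each GC box (GGGCGG on either strand) and E-box (CACGTG).
GNAI1: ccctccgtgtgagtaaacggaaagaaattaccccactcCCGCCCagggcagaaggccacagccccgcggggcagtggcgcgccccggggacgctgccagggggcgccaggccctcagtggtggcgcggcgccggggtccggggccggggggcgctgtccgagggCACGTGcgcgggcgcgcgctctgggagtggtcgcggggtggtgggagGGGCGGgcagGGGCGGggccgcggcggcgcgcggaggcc
GNAI3: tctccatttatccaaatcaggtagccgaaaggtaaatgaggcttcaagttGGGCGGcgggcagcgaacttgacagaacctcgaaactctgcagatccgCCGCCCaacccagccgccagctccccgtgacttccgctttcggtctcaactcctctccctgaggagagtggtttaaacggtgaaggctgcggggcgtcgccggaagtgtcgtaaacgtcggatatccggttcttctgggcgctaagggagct
The GNAI1 window held 79.6% G and C, 3 GC boxes and 1 E-box, and the GNAI3 window 57.6% G and C, 2 GC boxes and no E-box. A GC box was found in 42.6% and an E-box in 6.34% of 35116 promoter windows of this length. Neither window held the cAMP response element (TGACGTCA, in 1.65% of all windows), the TATA box (TATAAA, 10.7%) or the CArG box (1.16%); all were searched on both strands, and a match or its absence describes these letters only.

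GNAI1 was expressed at 42.1 CPM in pBabe-vector replicate 1, 36.6 CPM in replicate 2 and 20.1 CPM in replicate 3. In pBabe-Gα13 it was at 15.8 CPM in the std library, 9.17 CPM in replicate 2 and 7.91 CPM in replicate 3. The groups did not overlap, and in both lines the std library was the highest and replicate 3 the lowest. The highest and lowest library differed 2.10-fold within pBabe-vector and 2.00-fold within pBabe-Gα13. Group means in pBabe-vector and pBabe-Gα13 were 32.9 ± 11.5 CPM and 10.97 ± 4.27 CPM (SD, n = 3 each) with GNAI1 lower in 3 of 3 pairs, by log2 values of −1.41 (std), −2.00 (replicate 2) and −1.34 (replicate 3).

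The log2 fold change of GNAI1 was −1.58 (95% interval −2.38 to −0.79). In bulk RNA, less transcript in every cell and fewer cells with the transcript cannot be told apart. Without the block it did not pass (edgeR adjusted p = 0.226, unadjusted p = 0.00196; exact permutation p = 0.10), and with the block it did (edgeR adjusted p = 1.54e-12, 95% interval −1.78 to −1.39). Of the other unblocked fits, DESeq2 called it (adjusted p = 0.000660), whereas limma-trend (adjusted p = 0.289) and the newer quasi-likelihood method of edgeR (adjusted p = 0.219) did not. Blocked fits by these tools all called it, limma-trend only just (adjusted p = 0.0491), DESeq2 at adjusted p = 4.99e-31 and the newer edgeR method at adjusted p = 1.34e-07. In the blocked edgeR fit it stayed called when any 1 of the 3 pairs was left out, with log2 fold changes from −1.68 to −1.38. The edgeR adjusted p was then at most 3.22e-41, smaller than with all pairs although fewer libraries were used. With so few libraries the variance is estimated largely across genes, so these calls are weak support. Of the 14059 genes with a mean of at least 1 CPM, 10 had a lower log2 fold change than GNAI1, and 90% of the 14059 lay between −0.39 and 0.40.

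The other Gi genes were GNAI2 and GNAI3, which encode the widely expressed Gαi2 and Gαi3, and GNAZ, which encodes Gαz, a member of the class found mainly in neurons and platelets and whose gene overlaps the antisense gene RSPH14. GNAI2 was expressed at 66.1, 69.4 and 64.0 CPM in pBabe-vector (replicates 1, 2 and 3) and at 69.8, 65.0 and 63.8 CPM in pBabe-Gα13 (std, replicates 2 and 3). Its log2 fold change was −0.0066 (95% interval −0.21 to 0.20, edgeR adjusted p = 1.00 unblocked and 0.970 blocked). The libraries of the lines were interleaved, and the interval covers folds from 0.864 to 1.146.

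GNAI3 was expressed at 115, 104 and 123 CPM in pBabe-vector and at 124, 97.2 and 123 CPM in pBabe-Gα13, in the same order of libraries. Replicate 2 was the lowest in both lines. The log2 fold change was 0.0088 (95% interval −0.28 to 0.30, edgeR adjusted p = 1.00 unblocked and 0.986 blocked). GNAZ was expressed at 21.4, 24.6 and 23.9 CPM in pBabe-vector and at 19.8, 22.8 and 23.8 CPM in pBabe-Gα13. It was lower in 3 of 3 pairs, by 0.0018 to 0.11 on the log2 scale, and its log2 fold change of −0.07 passed neither fit (95% interval −0.35 to 0.21, edgeR adjusted p = 0.9752 unblocked and 0.541 blocked).

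GNAS encodes Gαs, the stimulatory subunit, and is an imprinted locus with several promoters whose transcripts the counts per gene do not separate, and it shares exon bases with the antisense gene GNAS-AS1. It was expressed at 1013, 1099 and 966 CPM in pBabe-vector and at 796, 874 and 784 CPM in pBabe-Gα13. Each pBabe-Gα13 library lay below each pBabe-vector library, and the 3 pairs differed by nearly the same amount, −0.35, −0.33 and −0.30 on the log2 scale. Means were 1026 ± 67.4 CPM and 818 ± 48.8 CPM (SD, n = 3 each). The log2 fold change was −0.33 (95% interval −0.58 to −0.07, edgeR adjusted p = 0.425 unblocked and 1.25e-05 blocked, exact permutation p = 0.10), which is 79.7% of the pBabe-vector level. Blocked fits by other tools also called it, limma-trend only just (adjusted p = 0.0491), DESeq2 at adjusted p = 2.42e-09 and the newer edgeR method at adjusted p = 0.000214. Without the block these tools did not call it (DESeq2 adjusted p = 0.119, limma-trend adjusted p = 0.345, newer edgeR method adjusted p = 0.406). In the blocked edgeR fit it stayed called without any 1 of the 3 pairs (adjusted p of 2.06e-07 to 3.25e-05). With so few libraries left, this is weak support.

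GNAS lies on chromosome 20 (58839718 to 58911192, plus strand), whose genes were lower as a group. The 338 genes of that chromosome with a mean of at least 1 CPM had a median log2 fold change of −0.21, and 80.5% of them were below 0. All 20 genes nearest to GNAS, 10 on each side, were below 0 as well, with a median of −0.26. For a centred t test the median of the chromosome was subtracted from the edgeR log2 fold change, which was divided by its SE. The p from a t distribution was adjusted over 14479 genes, with the median taken as exact. Relative to its chromosome GNAS was at −0.12, where it was not called with the block (centred t test, adjusted p = 0.0970). On that scale 15.4% of the 14479 genes were called, 7.71% higher and 7.67% lower. GNAI1 was at −1.55 relative to chromosome 7 and stayed called there (centred t test, adjusted p = 2.16e-12 with the block). Its 20 neighbours had a median of −0.07 and the lowest of them stood at −0.55.

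**Figure D2:**
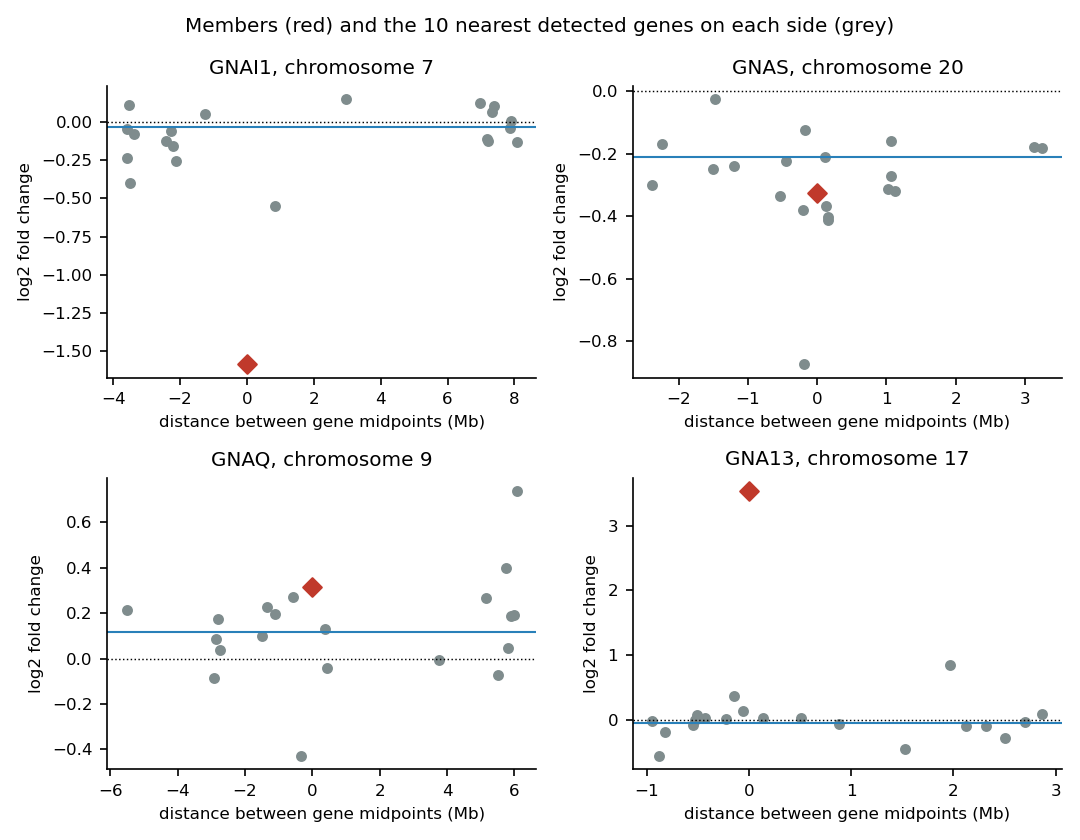
Log2 fold change (pBabe-Gα13 over pBabe-vector, vertical axis) of GNAI1, GNAS, GNAQ and GNA13 (red diamonds) and of the 10 nearest detected genes on each side (grey points) against the distance between gene midpoints in Mb; the blue line is the median of the chromosome and the dotted line is 0. GNAI1 and GNA13 lie outside the range of their neighbours, whereas GNAS and GNAQ lie within it.

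GNAQ and GNA11 encode Gαq and Gα11, the Gq/11 subunits that activate phospholipase C beta. GNAQ was expressed at 12.995, 11.4 and 11.5 CPM in pBabe-vector and at 18.3, 14.3 and 12.1 CPM in pBabe-Gα13. It was higher in 3 of 3 pairs, by 0.49 (std), 0.33 (replicate 2) and 0.07 (replicate 3) on the log2 scale, although pBabe-Gα13 replicate 3 lay below pBabe-vector replicate 1. The log2 fold change was 0.32 (95% interval −0.09 to 0.72, edgeR adjusted p = 0.732 unblocked and 0.0198 blocked).

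The blocked call of GNAQ was lost without the std pair or without the pair of replicate 2 (edgeR adjusted p up to 0.209). It was also lost in blocked fits with DESeq2 (adjusted p = 0.130) and limma-trend (adjusted p = 0.184), and kept with the newer edgeR method (adjusted p = 0.0267). GNAQ lies on chromosome 9 (77716097 to 78031811, minus strand), whose genes had a median log2 fold change of 0.12. Relative to that median it was at 0.19 with the block and was not called (centred t test, adjusted p = 0.196). GNA11 was expressed at 120, 114 and 149 CPM in pBabe-vector and at 123, 115 and 145 CPM in pBabe-Gα13. Replicate 3 was the highest library of GNA11 in both lines, and the pairs differed by at most 0.04 on the log2 scale in either direction. Its log2 fold change was 0.00036 (95% interval −0.32 to 0.32, or −0.10 to 0.11 with the block).

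**Figure D3:**
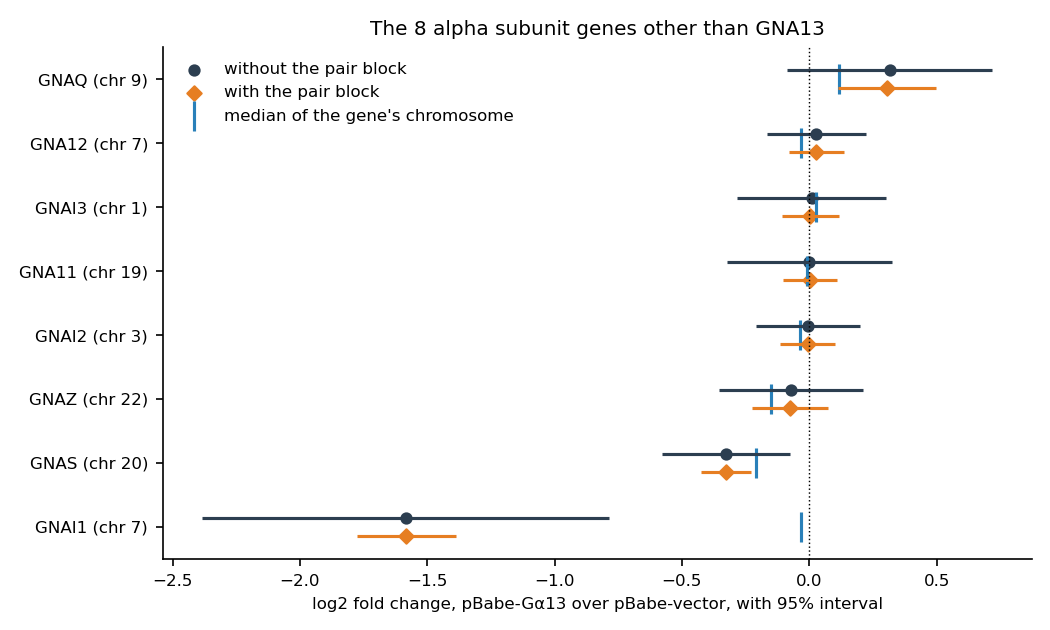
Log2 fold change (horizontal axis, pBabe-Gα13 over pBabe-vector) with 95% intervals for the 8 genes other than GNA13, without the pair block (dark circles) and with it (orange diamonds), and the median of the chromosome of each gene (blue ticks). The interval of GNAI1 lies below −0.79 without the block, that of GNAS lies below −0.07 next to a chromosome median of −0.21, and the intervals of the other 6 genes include 0 without the block.

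GNA13 encodes Gα13, the subunit that was overexpressed, and lies on the minus strand of chromosome 17 (65009289 to 65056740). It was expressed at 76.7, 69.4 and 65.4 CPM in pBabe-vector and at 820, 886 and 747 CPM in pBabe-Gα13. The pairs differed by log2 values of 3.42, 3.68 and 3.51, and the fold was 11.6 (95% interval 9.50 to 14.2; edgeR adjusted p = 9.12e-05). Reads from the pBabe cDNA and from the cells' own GNA13 cannot be told apart in these counts. By CPM it was in place 3443 of all genes in pBabe-vector and in place 105 in pBabe-Gα13. Its 20 neighbours on chromosome 17 had a median log2 fold change of −0.0055.

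GNA12 encodes Gα12, the other member of the G12/13 class, and overlaps in function with Gα13. It was expressed at 72.2, 75.0 and 76.8 CPM in pBabe-vector and at 78.2, 73.5 and 76.4 CPM in pBabe-Gα13. The highest and lowest of the 6 libraries differed 1.08-fold, the narrowest range among the 9 genes. The log2 fold change was 0.03 (95% interval −0.17 to 0.22, edgeR adjusted p = 1.00 unblocked and 0.785 blocked), so that a change beyond 0.891-fold or 1.17-fold lies outside the interval. The ratio of GNA13 to GNA12 per kb of MANE Select transcript went from 0.661 ± 0.0747 in pBabe-vector to 7.53 ± 0.815 in pBabe-Gα13 (SD, n = 3 each), with no overlap (exact permutation p = 0.10). Per kb of coding sequence it went from 1.32 ± 0.148 to 14.97 ± 1.62. The ratio in pBabe-Gα13 depends on the unknown length of transcripts made from the pBabe cDNA. This rise followed from the introduction of GNA13.

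The pattern of GNA13 over the 6 libraries was compared with that of the 14058 other genes with a mean of at least 1 CPM, by the root mean square difference of log2 CPM centred on the mean of each gene. The nearest were ZC3HAV1L (0.32, log2 fold change 3.08), SPATA18 (0.36, log2 fold change 2.98) and ATF7IP2 (0.37). ATF7IP2 was at 1.98 ± 0.541 CPM in pBabe-Gα13 and 0.0717 ± 0.0353 CPM in pBabe-vector (SD, n = 3), the latter at about 3 reads a library, so no fold is given. All 3 were called without the block (edgeR adjusted p of 0.0149, 0.0121 and 0.0161), and a near match to GNA13 requires a large difference between the lines. ZC3HAV1L was at 5.62 ± 0.425 CPM in pBabe-Gα13 and 0.653 ± 0.240 CPM in pBabe-vector (SD, n = 3). Among the alpha subunit genes the nearest pair by this measure was GNA12 and GNAI2 (0.06), and GNA11 was nearest to GNAI3 (0.11), GNAS to GNAZ (0.17), GNAZ to GNA12 (0.12) and GNAQ to GNAI2 (0.21). GNAI1 had no near partner: the nearest was GNAS, at 0.76.

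Levels of different genes were compared per kb of transcript, and the order depended on the length used; the MANE Select length was chosen after seeing the data. Merged exons reach 24192 bases for GNAI1 and 22221 for GNAS because they add up all annotated isoforms, whereas the MANE Select transcripts have 10083 and 1854 bases. Per kb of merged exons the order in pBabe-vector was GNAS (46.2 ± 3.03 CPM per kb), GNA11 (20.3 ± 2.98), GNAI3 (12.6 ± 1.04), GNA12 (12.2 ± 0.380), GNA13 (10.96 ± 0.889), GNAI2 (8.98 ± 0.369), GNAZ (6.33 ± 0.451), GNAQ (1.72 ± 0.127) and GNAI1 (1.36 ± 0.474; SD, n = 3 each). Libraries of GNAI3 overlapped those of GNA12, those of GNA12 overlapped GNA13, and those of GNAQ overlapped GNAI1, while the other neighbours in this order were separate. Per kb of MANE Select transcript GNAS led by more (553 ± 36.3), GNAI2 stood beside GNA11 (30.0 ± 1.23 against 30.5 ± 4.47, overlapping), and GNAQ was last (1.74 ± 0.129) behind GNAI1 (3.27 ± 1.14).

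In pBabe-Gα13 the order of the 8 other genes kept GNAS first, and GNAI1 was last by each of the 3 lengths used (merged exons, MANE Select transcript and coding sequence). GNAI1 was at 1.09 ± 0.423 CPM per kb of MANE Select transcript there, below GNAQ at 2.17 ± 0.451 (SD, n = 3), with separate libraries, whereas by coding length the libraries of these genes overlapped. GNA13 was first per kb of merged exons (127 ± 10.8 CPM per kb) and second to GNAS per kb of MANE Select transcript (131 ± 11.1 against 441 ± 26.3). The construct holds cDNA, so transcripts made from it may be shorter than the 6249 bases of the endogenous MANE Select transcript, and the per-kb level of GNA13 in pBabe-Gα13 depends on that unknown length.

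By class, the 4 Gi genes together were at 53.2 ± 1.14 CPM per kb of MANE Select transcript in pBabe-vector and 50.6 ± 2.44 in pBabe-Gα13 (SD, n = 3; exact permutation p = 0.20), with overlapping libraries. Per kb of coding sequence the Gi sums did not overlap, at 211 ± 6.32 in pBabe-vector and 191 ± 16.7 in pBabe-Gα13 (exact permutation p = 0.10). Per kb of MANE Select transcript GNAI1 made up 6.11 ± 2.05% of the Gi level in pBabe-vector and 2.13 ± 0.740% in pBabe-Gα13, without overlap (exact permutation p = 0.10), and per kb of coding sequence 13.9 ± 4.56% and 5.10 ± 1.68%. Per kb of MANE Select transcript the Gq/11 genes were at 32.2 ± 4.44 and 32.7 ± 3.49 CPM per kb, and GNAS, the only Gs gene, at 553 ± 36.3 and 441 ± 26.3. The G12/13 genes were at 28.4 ± 0.385 and 148 ± 10.8 CPM per kb.

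GNA13 made up 9.08 ± 0.809% of the summed level of the 9 genes in pBabe-vector and 56.0 ± 2.58% in pBabe-Gα13 per kb of merged exons (SD, n = 3, exact permutation p = 0.10), or 1.69 ± 0.149% and 19.4 ± 0.839% per kb of MANE Select transcript. Per kb of coding sequence the shares were 9.82 ± 0.748% and 58.3 ± 2.80%. Each share in pBabe-Gα13 depends on the unknown length of transcripts made from the construct. Because GNA13 was the gene introduced, a rise in its share was fixed by the design and says nothing of the other subunits. The 8 genes other than GNA13 summed to 110 ± 1.85 CPM per kb of merged exons in pBabe-vector and 99.9 ± 1.95 in pBabe-Gα13 (exact permutation p = 0.10), 91.0% of the pBabe-vector level. With GNAS left out too, the remaining 7 summed to 63.6 ± 3.45 and 63.0 ± 4.09 CPM per kb (exact permutation p = 0.90), which differed by less than the spread between replicates. This was 99.2% of the pBabe-vector level. By MANE Select length it was 98.2%, by coding length 95.5% and by plain CPM 95.9% (exact permutation p of 0.80, 0.40 and 0.50).

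**Figure D4:**
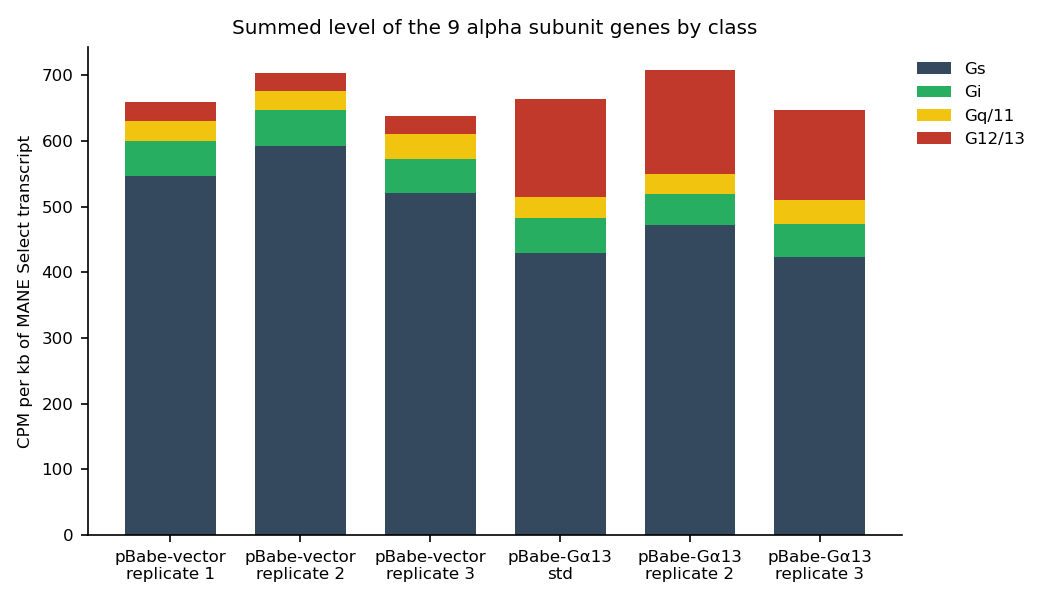
Summed level of the 9 alpha subunit genes in each library, in CPM per kb of MANE Select transcript (vertical axis, from 0), stacked by class: Gs (GNAS), Gi (GNAI1, GNAI2, GNAI3 and GNAZ), Gq/11 (GNAQ and GNA11) and G12/13 (GNA12 and GNA13). In pBabe-Gα13 the G12/13 part is 137 to 159 against 28.0 to 28.8 CPM per kb in pBabe-vector, and the Gs part is 423 to 471 against 521 to 593. The G12/13 part in pBabe-Gα13 depends on the unknown length of transcripts made from the construct.

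Of 7 further alpha subunit genes, 4 were in the table and none passed either fit. GNA14, a Gq/11 gene next to GNAQ, was at 1.26 ± 0.487 CPM in pBabe-Gα13 and 1.69 ± 0.564 CPM in pBabe-vector (SD, n = 3), and GNAO1, GNAL and GNA15 did not exceed 1.02 CPM in either mean.

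Other genes of the pathway were taken from 8 lists by role, with 105 entries, and the table held 83. Unblocked, edgeR called 0 of these 83, 8 had an unadjusted p under 0.05 (8.46% of all genes did), and DESeq2 called 1, GNG4. With the block 17 of 83, or 20.5%, were called, 8 higher and 9 lower, against 19.7% of all genes. The median log2 fold change of the 83 genes was 0.01.

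Of the beta and gamma subunits, the partners of every alpha subunit, 13 of 17 were in the table, with a median log2 fold change of 0.0032. The 9 of them with a mean of at least 1 CPM had a median of −0.081. Among the 13, the blocked fit called 4 lower and 0 higher. Its shares over the whole table were 10.4% lower and 9.32% higher. GNG4, a gamma subunit, was at 7.25 ± 1.41 CPM in pBabe-Gα13 and 12.6 ± 1.78 CPM in pBabe-vector (SD, n = 3), with a difference of −0.80 on the log2 scale (edgeR adjusted p = 0.277 unblocked and 1.03e-06 blocked). GNG13 had a log2 difference of −0.53 (edgeR adjusted p = 0.708 unblocked and 0.0218 blocked), and GNB4 and GNB5 were the others called there.

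Of 21 receptors that couple to G12/13, 14 were in the table and 7 had a mean of at least 1 CPM. With the block 1 was higher and 2 were lower, where 9.32% and 10.4% of all genes were. F2RL1, which encodes the protease-activated receptor PAR2, had a log2 difference of −0.19 (edgeR adjusted p = 0.703 unblocked and 0.0184 blocked). Relative to its chromosome the blocked call was lost (centred t test, adjusted p = 0.0534). LPAR6, a lysophosphatidic acid receptor gene, had a log2 difference of 0.37 (edgeR adjusted p = 0.706 unblocked and 0.00519 blocked). S1PR3, a sphingosine-1-phosphate receptor gene with a wide spread in both lines (16.3 ± 11.5 and 23.9 ± 19.2 CPM; SD, n = 3), was the other receptor called with the block.

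Neither the 7 Gq/11 effectors (median log2 fold change −0.08) nor the 6 adenylyl cyclases in the table (median 0.12) held a gene called unblocked or blocked. Relative to their chromosomes, 15.4% of 14479 genes were called with the block. On that scale 4 genes of these lists were called, namely PLCB4 (centred t test, adjusted p = 0.000208), ARHGEF25 (0.0293), ADCY6 (0.0335) and ADCY1 (0.0436). The smallest p among the former was that of KALRN (log2 fold change −0.43, edgeR adjusted p = 0.784), followed by PLCB3, a phospholipase C beta (−0.16, edgeR adjusted p = 0.865). Among the cyclases it was that of ADCY9 (−0.13, edgeR adjusted p = 0.875), followed by ADCY1 (0.15, edgeR adjusted p = 0.910).

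Of 21 RGS proteins, which speed up GTP hydrolysis by alpha subunits, 16 were in the table, and RGS2 and RGS3 were higher and RGS19 lower with the block. Over all genes 9.32% were called higher and 10.4% lower with the block. RGS19 had a log2 difference of −0.52 (edgeR adjusted p = 0.579 unblocked and 0.00422 blocked) and RGS16 of −0.26 (edgeR adjusted p = 0.825 unblocked and 0.211 blocked). RGS19 lies on chromosome 20 and RGS3 on chromosome 9, and relative to these both blocked calls were lost (centred t test, adjusted p of 0.103 and 0.513). Of 8 chaperones, exchange factors and inhibitors of GDP release, RIC8B, a chaperone of Gαs, and CCDC88C were higher with the block (log2 fold changes 0.32 and 0.19, edgeR adjusted p = 0.0267 and 0.0104 with the block, 0.578 and 0.747 without). RIC8B lies on chromosome 12, whose genes had a median of 0.30, and relative to it was not called (centred t test, adjusted p = 0.919).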

How the data were processed

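RNA-seq was analysed in 6 LNCaP libraries, 3 pBabe-vector and 3 pBabe-Gα13, grouped by the sample titles. The deposited values are read counts per gene symbol, made by the authors with FastQC 0.11.7, STAR and featureCounts. The study's methods name Gencode 38, but the table holds symbols of older releases (ATP5E, AES), so the annotation behind the counts, and with it the lengths per kb, is uncertain; TMM and limma belong to the study's own analysis. The use of strand in counting is not given in the sources used here, so reads of GNAS and its antisense gene GNAS-AS1 (1127 shared exon bases), of GNAZ and RSPH14 (274), and of GNA11 and a pair of antisense lncRNAs (452 and 472), cannot be told apart. GNAI3 shares exon bases on its own strand with a lncRNA (596) and with MIR197 (75), where the use of strand would not separate the reads. 0 columns were left out. One pBabe-Gα13 heading repeats the number 2 beside the tag std, so that library is tied to its line only.

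Counts were TMM-scaled and tested with edgeR 4.0.16 (R 4.3.3; glmQLFit with abundance trend) over 17297 genes without a filter. Total counts of 33002160 to 40628970 make 1 read 0.0238 to 0.0312 CPM, and a floor of 3 reads 0.0715 to 0.0935 CPM; the precision of low genes covers counting error only. Deviations of same-pair libraries from the group means correlated at 0.659 to 0.888 across 12778 genes, which are not independent replicates. Permutation tests used SciPy 1.17.1. Positions, lengths and chromosomes are from Gencode 44, to which 14479 symbols were matched. The fit was tested on simulated data. Alternatives were DESeq2 1.42.0, limma-trend 3.58.1, other scalings, filterByExpr, the block, centring of chromosomes and leaving out libraries; MANE Select lengths, blocked fits by other tools and the neighbouring genes were added after seeing the data. The members and lists were chosen with earlier results of these data known. Named in the text were all members, the 2 detected genes with the smallest p of each list, and the 3 genes nearest to GNA13 in pattern. Genes called with the block, GNAL, GNAO1 and GNA15 lie outside that rule and were added, as were the marker genes, once their values had been seen. The list of G12/13 effectors entered the totals over the lists and is not reported here.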

Additional observations from a re-analysis of the deposited data

How the results depend on the processing

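GNA13 was called in every fit run, with log2 fold changes of 3.47 to 3.60 when 1 library was left out. Which other alpha subunit genes passed depended on the pair block, and the cause was not tested. Counts of alpha subunit genes called were 1 without the block, 2 with DESeq2, 4 with the replicate block (3 to 4 with 1 pair left out), 3 with the block in DESeq2 or limma-trend, 4 in edgeR's newer quasi-likelihood method, and 2 with the block and centred chromosomes; leaving out 1 library gave 1 throughout. Over all genes the counts were 24 without the block, 280 with DESeq2, 5 with limma-trend, 3407 with the replicate block (3266, 2550 and 2250 without the std pair and those of replicates 2 and 3), 1988, 433 and 3129 with the block in DESeq2, limma-trend and the newer edgeR method, and 2226 with the block and centred chromosomes. With 1 library left out they were 2 to 15, lowest without the pBabe-Gα13 std library (2), pBabe-vector replicate 1 (3) or replicate 2 (4), with 11 without pBabe-Gα13 replicate 3, 13 without pBabe-vector replicate 3 and 15 without pBabe-Gα13 replicate 2. For the 83 pathway genes they were 0 without the block, 1 with DESeq2, 17 with the replicate block (18, 10 and 9 without each pair in turn), 6, 2 and 16 with the block in the other tools, and 15 with the block and centred chromosomes.

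Genes near 0 changed sign without ever being called. GNA11 was −0.00043 with DESeq2 size factors and −0.00042 in DESeq2. GNAI2 was 0.0057 with upper quartile scaling and 0.0052 with the low-count filter. With chromosomes centred, GNAI2 was 0.0300, GNAI3 −0.0170 and GNAZ 0.0777, and with the block as well 0.0298, −0.0208 and 0.0759. With 1 library left out GNA11 ranged from −0.0966 to 0.126, GNAI2 from −0.0381 to 0.0262, GNAI3 from −0.0522 to 0.116 and GNAZ from −0.130 to 0.0098. In the blocked fit, GNA12 was −0.0136, GNA11 −0.0096 and GNAI3 −0.0443 when the std pair was left out, without the pair of replicate 2 GNA11 was −0.0056 and GNAI2 0.0337, and without that of replicate 3 GNAI2 was 0.0028.

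The difference in the share of GNA13, 46.9 percentage points per kb of merged exons, was 34.9 by plain CPM and 17.7 by MANE Select length, and 45.6 to 48.2 with 1 library left out. The log2 ratio of the 8 other genes, −0.14, was −0.24 by plain CPM and −0.28 by MANE Select length, and −0.15 to −0.12 with 1 library left out. The count of alpha subunit genes whose groups did not overlap was 3 with TMM, DESeq2 size factors and upper quartile scaling, and no alternative turned the direction of GNA13, GNAI1, GNAS or GNAQ. With 3 libraries a line the median unblocked SE of a detected gene was 0.157 on the log2 scale, which limits what small differences can pass.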
